A study of Mus musculus with 18 samples.

Results

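Unmarked CTCF sites between genes are stretches of mouse genome that CTCF occupied in liver without a called promoter or enhancer mark and outside every protein-coding gene. The peaks of the 4 CTCF lists were merged wherever they shared 1 bp, which gave 30021 regions on chromosomes 1 to 19 and X. Of these, 22043 were called in both WT libraries. A site was kept when it overlapped no H3K4me3 peak of WT, no H3K27ac peak of any of the 3 WT libraries, and had its midpoint in none of the spans of 21627 protein-coding genes. This left 8812 sites, 39.98% of those called in both WT libraries. The other sites of both WT libraries were 8318 unmarked sites inside genes, 2790 with H3K27ac but no H3K4me3, and 2123 with H3K4me3. The members were thus chosen by the CTCF, H3K4me3 and H3K27ac calls of WT and by the gene spans, so their WT values for these marks are given as descriptions. The CTCF peaks of KO also entered the merge, and so the extent and midpoint of the regions. With regions merged from the WT CTCF lists alone there were 8897 members, of which 73.0% were called in both KO libraries.

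The study compared liver of C57BL/6 mice aged 8 weeks that carried 2 loxP-flanked ("floxed") Ctcf alleles (CTCF fl/fl). Control animals lacked the Cre transgene (Albcre-) and are called WT here, although they too carry the floxed alleles. Knockout animals carried it (Albcre+) and are called KO. The albumin promoter drives this Cre in hepatocytes, so other cells of the liver may keep Ctcf. The peak lists do not give the deletion by cell type. Peak lists of 18 libraries were used: CTCF in WT164, WT165, KO160 and KO163, PPARg in WT 2 and 4 and KO 7 and 8, H3K27ac in WT 1, 2 and 4 and KO 2, 3 and 4, H3K4me3 in WT 2 and KO 4, and H3K27me3 in WT156 and KO150. The CTCF libraries and PPARg WT 2, KO 7 and KO 8 were made by tagmentation from male mice after an overnight fast. The others were made by adapter ligation, with no sex in their labels. Their labels give liver as tissue but a growth protocol for neural stem cells. All 6 hepatocyte markers (Alb, Apoa1, Ttr, Serpina1c, Cps1 and Hnf4a) held an H3K4me3 peak in both genotypes, and the neural stem cell markers Sox2, Nes, Pax6, Olig2 and Fabp7 held none in either. No Kupffer cell or lymphocyte marker of the 4 checked for each held H3K4me3, whereas 3 of the 4 endothelial markers did in WT and 4 in KO, as did 2 and 3 of the 4 stellate cell markers and 1 and 2 of the 4 cholangiocyte markers. H3K27ac peaks were less selective: over the 6 libraries they touched 0 to 3 of the 4 Kupffer cell markers, 1 or 2 of the 4 lymphocyte markers and up to 2 of the neural stem cell markers. The labels number the libraries without saying that each is a separate animal, and peak lists give no read depth.

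CTCF is a zinc finger protein that binds a long, oriented DNA motif. It halts loop extrusion by cohesin, and pairs of sites that point towards each other often anchor the ends of chromatin loops and of topologically associating domains. Where such a site lies between an enhancer and a promoter it can act as an insulator. H3K4me3 marks promoters and H3K27ac marks active promoters and enhancers, so sites with neither mark are commonly taken as candidates for a purely architectural role.

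No genome sequence was at hand, so letters could be read only in the RefSeq promoter windows (GRCm38.p6, from 250 bases before to 50 bases after a gene's start) that hold the peak summits of both WT libraries. This was so for 109 members, 55 of them at starts of non-coding genes and 54 at starts of protein-coding genes. They are the members closest to gene starts and do not stand for the rest. The CTCF core was searched on both strands as CCNNNAGNNGGC, a string of 12 letters of which 7 are fixed. It lay in 62 of the 109 windows (56.9%, 95% Wilson interval 47.5 to 65.8), against 8.67% of all 32585 windows of the same length and 7.05% of the 30543 windows with no CTCF peak in any library. The median distance from the string to the WT164 summit was 18 bp. The share was 51.9% of 54 windows at unmarked sites inside genes, 56.4% of 39 at sites with H3K27ac and 49.7% of 563 at sites with H3K4me3. Among the member windows it was 51 of 84 where both KO libraries also had the peak, 7 of 16 where 1 had it, and 4 of 9 where neither did. A string was printed only where it lay before the gene's start and its flanks lay outside every protein-coding span. This left 46 of the members called in both KO libraries and 3 of those called in neither. The first 5 sequences below are the strongest of the 46, and the last 3 are those lost in KO. Each is named by the gene whose window holds it and written along the strand of the string, which is in capitals.
Gm52265, chr16:5306734-5306825, plus strand: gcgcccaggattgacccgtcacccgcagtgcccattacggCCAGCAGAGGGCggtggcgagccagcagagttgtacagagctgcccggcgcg
Synm, chr7:67759818-67759909, minus strand: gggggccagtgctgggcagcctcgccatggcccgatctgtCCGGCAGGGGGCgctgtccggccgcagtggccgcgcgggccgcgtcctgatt
Gm13404, chr2:33973549-33973640, plus strand: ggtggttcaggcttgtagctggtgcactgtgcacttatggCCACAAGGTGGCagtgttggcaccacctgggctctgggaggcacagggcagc
Mc1r, chr8:123406942-123407033, minus strand: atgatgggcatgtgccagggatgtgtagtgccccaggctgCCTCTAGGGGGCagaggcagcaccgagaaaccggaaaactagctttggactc
Crybg1, chr10:44149010-44149078, minus strand: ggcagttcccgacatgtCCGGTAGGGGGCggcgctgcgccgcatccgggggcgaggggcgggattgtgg
Gm40084, chr3:87411296-87411387, plus strand: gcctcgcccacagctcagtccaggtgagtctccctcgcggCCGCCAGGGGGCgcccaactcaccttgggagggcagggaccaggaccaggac
Ttyh1, chr7:4119393-4119484, plus strand: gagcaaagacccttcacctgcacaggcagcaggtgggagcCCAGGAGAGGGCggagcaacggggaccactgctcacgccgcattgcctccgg
Slc35f1, chr10:52690385-52690476, minus strand: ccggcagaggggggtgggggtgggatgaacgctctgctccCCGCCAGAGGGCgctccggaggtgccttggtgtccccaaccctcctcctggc

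At the Gm52265 start, a long non-coding RNA gene between Eef2kmt and the splicing factor gene Rbfox1, the authors' fold enrichment over background was 27.7 in WT164, 19.4 in WT165, 15.2 in KO160 and 19.9 in KO163. At the start of Synm, which encodes an intermediate filament protein, it was 22.2, 21.7, 14.8 and 17.7 in the same order. At the start of Mc1r, the melanocortin receptor of pigment cells, it was 18.9, 14.0, 9.93 and 12.8. The sites called in neither KO library were weaker in WT. The Gm40084 site had folds of 8.35 and 5.87 in WT, the site at Ttyh1, an ion channel gene, 5.69 and 4.52, and the site at Slc35f1, a transporter family gene, 5.13 and 5.50. These 3 were picked because they hold the string, so they say nothing of how often lost calls have it.

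The members ranged widely in CTCF peak strength in WT. Their fold enrichment had a median of 10.8 in WT164 and 9.49 in WT165 and ran from 2.99 to 49.2, where all sites of both WT libraries reached 60.4. In KO the median over the members called there was 8.66 in KO160 and 9.11 in KO163. Strength was also expressed as the percentile of a peak's −log10 q within its own list, where 100 is the strongest, and averaged over the 2 WT libraries. The median member stood at 57.4, against 54.0 for unmarked sites inside genes, 59.9 for sites with H3K27ac and 61.4 for sites with H3K4me3. The median merged region was 911 bp wide.

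Most members kept a CTCF call in KO liver. Both KO libraries called 6420 of the 8812 members (72.9%, 95% Wilson interval 71.9 to 73.8), and 72.3% of all 22043 sites of both WT libraries were called in both. KO160 called 76.8% of members, against 76.6% of all sites, and KO163 called 82.6%, against 82.2%. Exactly 1 KO library called 1210 members (13.7%). Neither called 1182 members (13.4%, 12.7 to 14.1), referred to below as lost calls, and among all sites the share was 13.4%. The members' shares thus stood close to those of all sites, of which they make up 39.98%. WT was fixed at 100% by the rule, so KO was not tested against WT. Bulk liver does not tell peaks of hepatocytes apart from peaks of cells that keep Ctcf, and a lost call from a weaker peak below the authors' threshold. The lost share moved with list length and with how a call is counted. It was 4.28% when all CTCF lists were shortened to 1 length and 23.7% when peaks had to cover 50% of the region, where the share called in both KO libraries was 47.4%. It was 26.6% without WT165 and 23.1% without KO163, where sites of a single remaining library count.

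**Figure D1:**
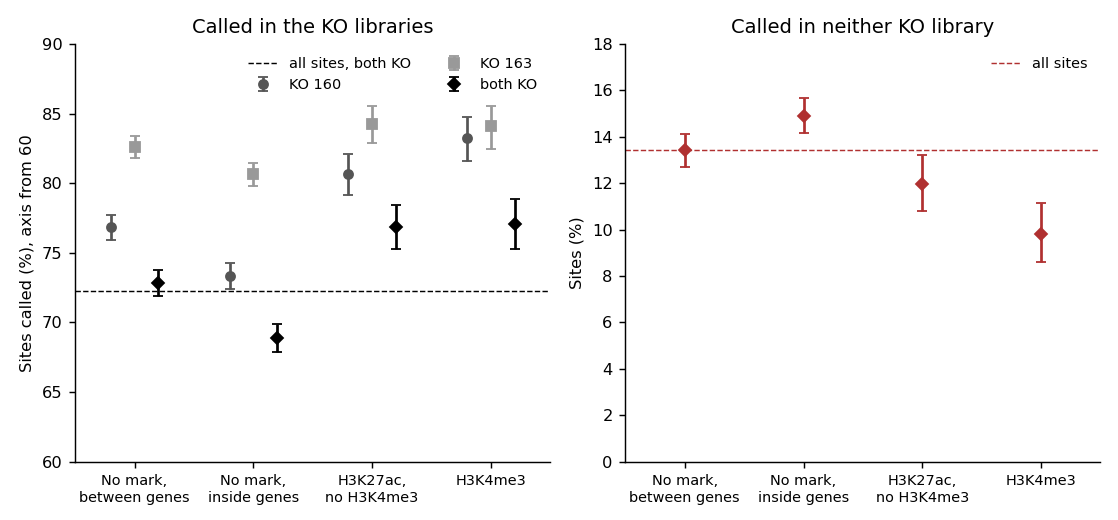
Percentage of CTCF sites of both WT libraries that were called in KO160, KO163 and both (left, axis from 60%) and in neither (right), for 4 classes of sites, with 95% Wilson intervals that cover counting error over sites only; dashed lines give all 22043 sites. The unmarked sites between genes lie near the dashed lines (72.9% and 13.4%), and unmarked sites inside genes are lowest on the left at 68.9%.

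Among unmarked sites, those between genes were called in KO more often than those inside genes. Both KO libraries called 68.9% of the unmarked sites inside genes, 3.94 percentage points below the members. The difference was 3.48 points in KO160 and 1.96 points in KO163, and with 2 KO libraries it has no test over samples. The members were also stronger in WT, as the percentiles above show. All sites of both WT libraries were therefore divided into 10 equal groups, or deciles, by their mean WT percentile. Members had the higher share called in both KO libraries in 7 of the 10 deciles and the lower in 3, with differences from −0.549 to 4.97 points. When each decile was given equal weight, the shares were 72.3% and 71.1%, and the lost shares were 13.7% and 13.7%. The difference was 1.09 points with CTCF lists of 1 length, 1.49 points when gene spans were widened by 5 kb on either side, and 1.96 points without KO160.

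Lost calls lay mostly among members that were weak in WT. In the weakest decile, 534 of 870 members (61.4%, 58.1 to 64.6) were lost calls. In decile 5 it was 32 of 913 (3.505%), and in decile 7 it was 3 of 912. None of the 906 and 885 members in the highest deciles was lost, which allows shares of up to 0.422% and 0.432% (upper Wilson limits). The 885 members of the strongest decile were called in all 4 libraries.

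**Figure D2:**
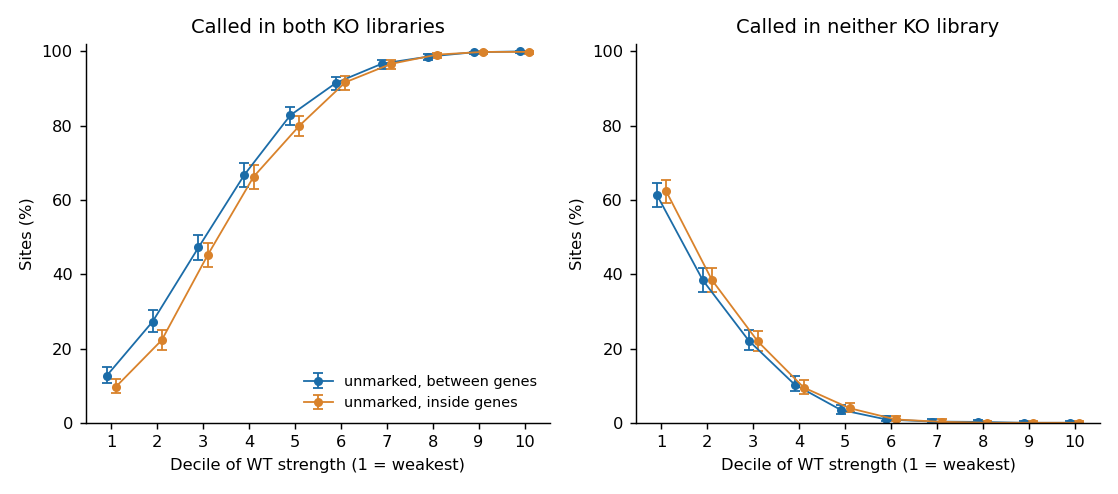
Percentage of unmarked CTCF sites called in both KO libraries (left) and in neither (right), by decile of the mean WT percentile (1 is the weakest), between genes (blue) and inside genes (orange), with 95% Wilson intervals. Lost calls fall from 61.4% in the weakest decile of sites between genes to 0 in the strongest, and the curves of both classes lie close together.

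The 8 members with the highest WT percentile lay in intervals next to genes of unlike function, and each kept its call in both KO libraries. The strongest lay 3.17 kb from Nemf, a ribosome quality control gene, and 10.9 kb from Arf6, a small GTPase gene (chr12:69360369-69361273). Its fold enrichment was 48.2 in WT164, 42.4 in WT165, 39.8 in KO160 and 44.9 in KO163. Here the WT and KO values overlapped. A WT H3K27ac peak lay 0.019 kb from this site, and it overlapped an H3K27ac peak in 2 KO libraries, so it lies at the edge of the rule. The site between Lbr, the lamin B receptor gene, and Enah, an actin regulator (chr1:181888318-181889564), had folds of 37.3 and 45.3 in WT against 29.3 and 32.5 in KO. The site between Th, tyrosine hydroxylase, and the transcription factor gene Ascl2 (chr7:142918491-142920020) had 34.4 and 32.6 against 20.7 and 26.7. At these sites both KO values lay below both WT values, and since the lists were called separately this is no measured change. The sites were also picked for their high WT rank, which was not asked of KO. The site 0.688 kb from Gtf3c5 and 23.3 kb from Gfi1b, a transcription factor of blood cell formation (chr2:28583968-28586178), had 40.4 and 40.7 against 18.3 and 26.2, with a WT H3K27ac peak 0.349 kb away. The site in the cytokine cluster between Csf2 and Il3, whose region touches the Il3 span (chr11:54262818-54265764), had 46.0 and 34.6 against 38.2 and 38.8. A WT H3K27ac peak was 122 kb away from it. The site between Dipk1b and the lipocalin gene Lcn4 (chr2:26646199-26647552) had 30.2 and 30.3 in WT, and 10.5 in KO160 but 21.8 in KO163. The sites between Atp23 and Ctdsp2 and between Lrrc1 and Klhl31 completed the 8, with folds of 30.4 to 41.7 in the 4 libraries.

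Lost calls with a high WT percentile had lower folds than these sites. A lost call lay 2.48 kb from Gm10479 (chr12:20464569-20465234), with folds of 13.6 in WT164 and 11.4 in WT165. The site between Ccdc87 and Ctsf, the cathepsin F gene (chr19:4847156-4847972), had 7.27 in WT164 and 19.4 in WT165, so the 2 WT libraries differed by more there than at the other named lost calls. A further 5 lay next to Jph3, a junctional membrane protein gene, touching Erc2, a gene of the presynaptic active zone, between Poteg and the netrin receptor gene Unc5d, between Stim2 and the protocadherin gene Pcdh7, and next to the sperm protein gene Izumo2. Their folds ran from 12.2 to 13.5 in WT164 and from 9.53 to 11.01 in WT165.

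**Figure D3:**
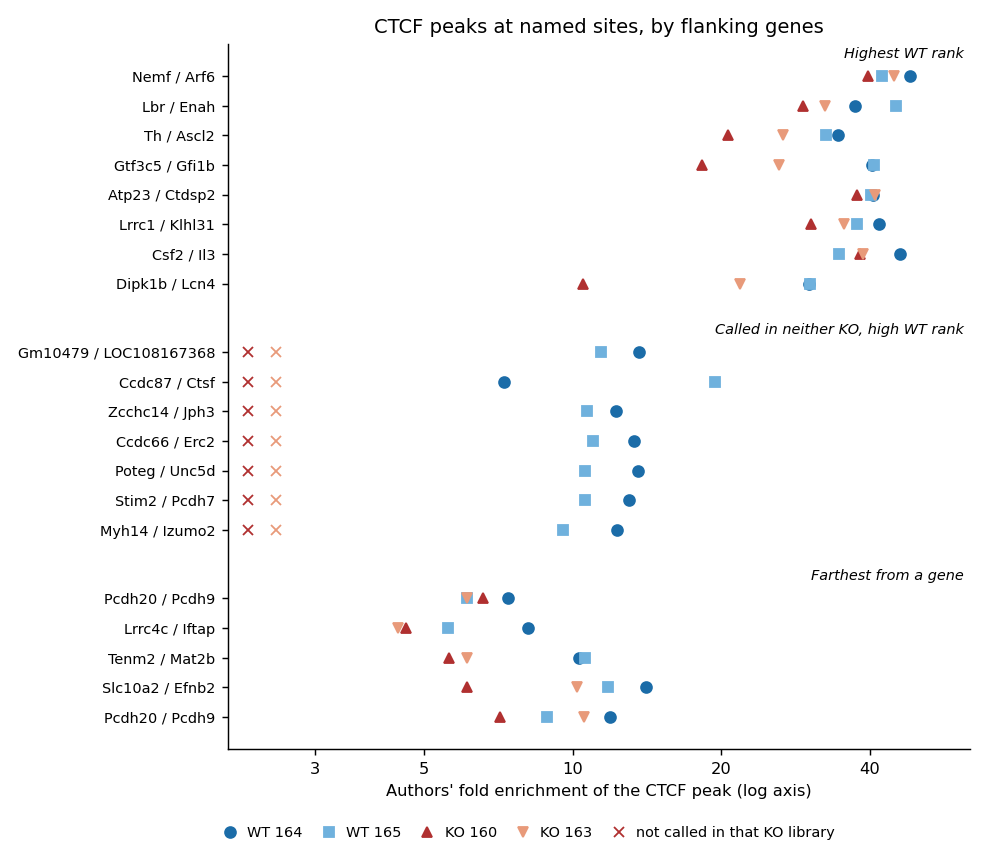
Authors' fold enrichment of the CTCF peak (log axis) in each of the 4 libraries at the 8 members with the highest WT percentile, 7 lost calls with a high WT percentile and the 5 members farthest from a gene, named by the genes on either side; crosses mark KO libraries with no peak. The first set spans 10.5 to 48.2, the lost calls 7.27 to 19.4 in WT, and the far members 4.43 to 14.1.

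The members lay farther from genes than the marked sites between genes, a description only, since the rule sorts sites by these marks. Their median distance to the nearest protein-coding gene was 14.1 kb, with quartiles of 4.31 and 42.3 kb and a maximum of 1961 kb. For sites with H3K27ac whose midpoint also lay between genes (n = 1341) the median was 7.20 kb, and for those with H3K4me3 (n = 1071) it was 0.01 kb. Within 1 kb of a gene lay 749 members (8.50%), against 15.2% and 77.2% in these classes. The median member lay 18.8 kb from the nearest WT H3K27ac peak, 42.0 kb from the nearest WT H3K4me3 peak and 18.4 kb from the next CTCF site of both WT libraries. A CTCF site within 10 kb was present for 3171 members (36.0%), and 2412 (27.4%) had no other member within 100 kb. The median distance to a gene was 23.7 kb when spans were widened by 5 kb, which moves nearby members into the spans. It was 6.53 kb when non-coding genes and pseudogenes counted as genes too.

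Members beyond 100 kb from a gene were weaker in WT and lost the call more often than nearer ones, whereas up to 100 kb the shares varied without a steady trend. The median WT percentile was 68.2 for the 271 members whose region touched a gene, 60.8 for the 478 others up to 1 kb, and 59.1, 61.2, 57.3 and 51.5 at 1 to 5, 5 to 20, 20 to 50 and 50 to 100 kb. It was 47.3 for the 946 members at 100 to 500 kb and 40.7 for the 97 beyond 500 kb. Lost calls made up 5.90% (3.67 to 9.37) of the members touching a gene and 13.8% (11.002 to 17.2) of the others up to 1 kb. The share was 11.7%, 11.4%, 13.1% and 15.5% in the next 4 groups, 20.9% (18.5 to 23.6) at 100 to 500 kb and 29.9% (21.7 to 39.6) beyond. With equal weight for each decile of WT strength the shares were 11.03%, 15.4%, 12.9%, 13.2%, 13.1%, 13.7%, 15.8% and 18.4% in the same order. The range narrowed, and the share up to 1 kb then lay near that at 100 to 500 kb. The last value rests on 97 sites spread over 10 deciles. The share lost was likewise 11.8% for the 618 members within 1 kb of a WT H3K27ac peak and 26.8% for the 142 beyond 500 kb, or 11.1% and 16.7% with equal deciles, where the 1115 members at 100 to 500 kb had 17.3%. It was 10.6% for the 480 members with another CTCF site within 1 kb and 21.8% for the 1085 with none within 100 kb, or 9.69% and 16.4%. These 3 distances move together, and their parts were not separated. A region called in KO includes its KO peak, so it can be wider and touch a gene through that peak. By region width, lost calls made up 73.9% of the 560 members up to 400 bp and 0.161% of the 1240 in the widest group. The median WT percentile of these groups was 19.9 and 84.4, so width also went with WT strength. The part of width in the low share of members touching a gene was not tested.

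**Figure D4:**
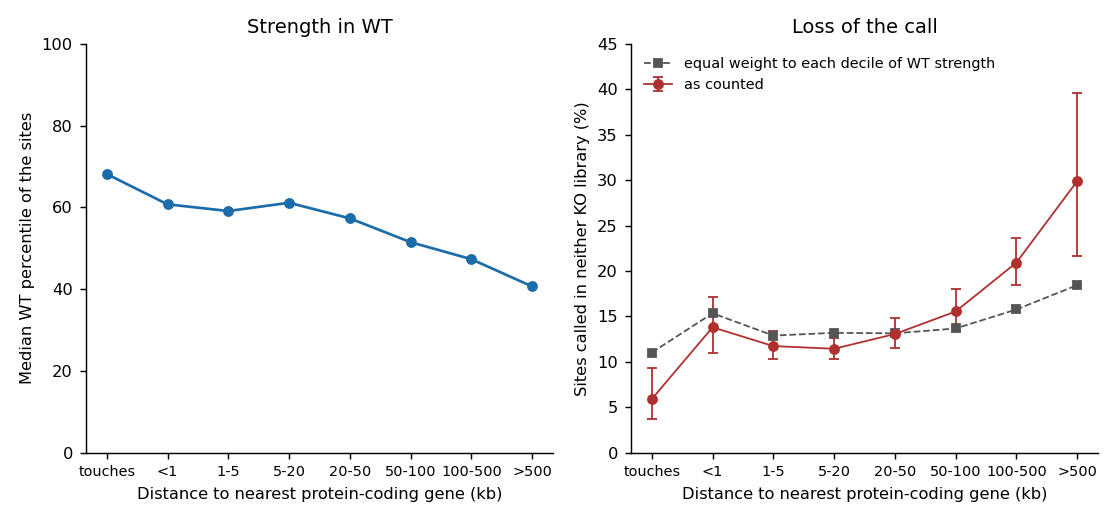
Median WT percentile (left) and percentage of lost calls (right) of the 8812 members by distance to the nearest protein-coding gene in kb; bars are 95% Wilson intervals and the grey dashed line gives each decile of WT strength equal weight. The median percentile is 68.2 at the left and 40.7 at the right. Lost calls are lowest where a region touches a gene (5.90%), vary between 11.4% and 15.5% up to 100 kb, and reach 29.9% beyond 500 kb, or 18.4% with equal deciles. KO peaks help set the extent of a region, and so which regions touch a gene.

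The 5 members farthest from a protein-coding gene were all called in the 4 libraries. They do not stand for their group, since both KO libraries called 43 of the 97 members beyond 500 kb (44.3%). The farthest lay 1961 kb from Pcdh20 and 2580 kb from Pcdh9, both protocadherin adhesion genes (chr14:90432680-90433730). Its folds were 7.40 and 6.11 in WT against 6.58 and 6.09 in KO, so the genotypes overlapped at a low level. Another member of the same interval (chr14:89920437-89921316) had 11.9 and 8.88 against 7.14 and 10.5. A site 1605 kb from Lrrc4c, a netrin-G ligand gene (chr2:99236906-99237482), had 8.12 and 5.58 against 4.59 and 4.43. The site between Tenm2, a teneurin gene, and Mat2b (chr11:38747328-38748122) had 10.3 and 10.6 against 5.61 and 6.09, with a WT H3K27ac peak 14.3 kb away. The site between the bile acid transporter gene Slc10a2 and the ephrin gene Efnb2 (chr8:6571814-6572798) had 14.1 and 11.8 against 6.10 and 10.2, and the next CTCF site was 1465 kb away.

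The X chromosome held few and weak members. It had 232, which were 50.3% of its 461 sites of both WT libraries, whereas on the autosomes the share ran from 32.7% (chromosome 19) to 47.0% (chromosome 3). Their median WT percentile was 35.4, against 58.2 over all autosomes and 54.9 to 64.5 on single ones. The CTCF libraries are from males, which carry 1 copy of X, and the part of this in the result was not tested. Lost calls were 43 of the 232 (18.5%, 14.1 to 24.0), against 13.3% on autosomes. With equal deciles they were 9.21% and 13.9%, so the order turned. The X value rests on few sites in the stronger deciles, since 200 of the 232 lay in those below the middle. Among members below the middle, lost calls were 21.5% on X and 27.1% of 4155 on autosomes. Autosomes ranged from 11.02% lost on chromosome 15 to 16.9% on chromosome 18. Spans of long non-coding RNA genes held 1277 members (14.5%), against 10.2% of all sites. All sites include the unmarked sites inside genes, of which 4.87% lay in such spans, so the rule bears on this comparison. Members inside and outside these spans had lost calls at 12.7% and 13.5%.

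Some intervals held many members. The densest stretch of up to 200 kb held 12 of them in 195 kb of chromosome 1 (86338916 to 86534256), from Ncl, nucleolin, across Nmur1, a neuromedin receptor gene, and the testis gene Tex44 to Ptma, prothymosin alpha. Both KO libraries called 8 of the 12, 1 library called 3, and 1 was lost. The strongest of them, 9.29 kb from Tex44, had folds of 28.7 and 27.9 in WT against 26.5 and 22.2 in KO. The lost one, 5.24 kb from Ptma, had 7.54 and 9.99 in WT. A stretch of the type I interferon cluster on chromosome 4 (88680370 to 88873272) held 9 members and no other site of both WT libraries. Both KO libraries called 5 of these, 1 called 2 and neither called 2. The strongest, between Klhl9 and Gm13271, had 22.7 and 28.5 in WT against 28.5 and 17.2 in KO. The lost ones lay on either side of Ifna5, with folds of 5.82 to 9.20 in WT. The interferon genes are near-identical copies, and how reads with several places in the genome were treated is not given in the sources used here.

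Gene lists were set against the nearest gene of each member. Genes for olfactory and vomeronasal receptors, which sense odours and pheromones in the nose, were nearest to 90 members. These were 86.5% of the 104 sites nearest to that list, where members make up 39.98% of all sites. For the other lists with sites this share ran from 35.4% to 64.7%. All sites include marked sites and sites inside genes, so the rule bears on these shares. Of the 90, 61 were called in both KO libraries (67.8%, against 72.3% of all sites) and 11 were lost calls (12.2%, 6.96 to 20.6). The site between Olfr94 and Olfr95 (chr17:37203135-37205215) had folds of 24.3 and 26.6 in WT against 14.5 and 23.5 in KO. Developmental regulators known for flanking gene deserts had 82 members with a median WT percentile of 38.7, and 19 were lost (23.2%, 15.4 to 33.4). Their strongest members were nonetheless kept. The site 7.63 kb from Cebpb, a liver transcription factor gene (chr2:167679313-167681285), had 30.3 and 23.1 in WT against 35.2 and 29.0 in KO, and the site 13.3 kb from Foxc1 (chr13:31792121-31793304) had 25.9 and 23.5 against 24.8 and 21.6. Genes of synapse and axon guidance adhesion had 113 members with 21 lost (18.6%), among the kept ones 2 sites beside the netrin receptor gene Unc5b with folds of 19.1 to 23.0 in WT and 15.6 to 18.7 in KO. Each list's share of lost calls is to be read against 13.4% of all sites, and none was tested.

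Lists of liver genes were counted in the same way. Secreted and transport proteins had 35 members with 5 lost (14.3%) and a median percentile of 72.6. The highest ones lay in the cluster of major urinary proteins, pheromone carriers made by hepatocytes. The site between Mup-ps16 and Mup5 (chr4:61810748-61812296) had 34.3 and 35.1 in WT against 20.02 and 21.5 in KO, and a site 12.1 kb from Mup20 had 19.5 and 21.6 against 11.6 and 12.2. At both, the KO values lay below the WT values, again without a test and at sites picked by WT rank. These genes too are near-identical copies. Drug and lipid metabolism genes had 87 members with 18 lost (20.7%, 13.5 to 30.4). The strongest, 12.4 kb from the organic anion transporter gene Slc22a8 (chr19:8577563-8578807), had 28.8 and 28.6 against 18.6 and 26.6. A site between the cytochrome P450 genes Cyp2s1 and Cyp2b10 (chr7:25854817-25855699) had 19.5 and 21.8 against 13.3 and 12.2. The Hox clusters, which pattern the body axis, had 11 members and no lost call. Both KO libraries called 8 of them (72.7%, against 72.3% of all sites). The site between Hoxd9 and Hoxd8 (chr2:74701608-74702790) had 15.2 and 12.8 against 13.3 and 13.9, overlapping values. No site of both WT libraries, and so no member, was nearest to a clustered protocadherin gene.

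Imprinted genes, expressed from 1 parental copy, were nearest to 23 members, of which 4 were lost calls. Sites named below by their locus need not be among the 23. Between H19 and Igf2, close to H19, lay the member at chr7:142580648-142581109. This is the interval where CTCF is known to bind the maternal copy and insulate Igf2 from enhancers. Its folds were low in WT, 5.15 and 6.47, and neither KO library called it. Its nearest protein-coding gene was Mrpl23, so it was not counted among the 23. The site between Magel2 and Mkrn3 (chr7:62399832-62400915) had 18.9 and 22.3 in WT against 14.3 and 17.7 in KO. The 2 sites between Cdkn1c, a cell cycle inhibitor gene, and Slc22a18 had 14.1 to 22.2 in WT and 12.5 to 17.0 in KO. Inside Meg3 a member had 7.86 and 11.9 against 5.42 and 5.91, and inside Airn one had 11.5 and 10.3 against 8.76 and 9.32. At the X inactivation centre, 5 members lay in Tsix, the antisense gene of Xist, and the 4 strongest had folds of 4.87 to 9.49 in WT. Of the 5, 2 were called in both KO libraries, 2 in KO163 alone and 1 in neither. The member beside Malat1 was strong and kept, with 22.6 and 19.3 in WT against 19.7 and 20.8 in KO.

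PPARg, the nuclear receptor of fat storage genes, rarely had a peak at these sites. It overlapped 43 members in WT 2, 42 in WT 4, 90 in KO 7 and 92 in KO 8. Both KO values lay above both WT values. The share was 0.482% ± 0.00802 in WT and 1.03% ± 0.0160 in KO (SD, n = 2 each), a difference of 0.550 points and a ratio of 2.14 (two-sided exact permutation test, p = 0.33, the smallest that 2 against 2 libraries can give). Over all sites of both WT libraries the shares were 3.48% and 5.47%, a ratio of 1.57, and at unmarked sites inside genes they were 0.463% and 1.12%, a ratio of 2.42. The KO lists were longer, with 27431 and 26345 PPARg peaks against 15514 and 16612. WT 4 was also made with another kit, and its list reached a lower −log10 q. With PPARg lists of 1 length the difference was 0.0567 points, and with peaks of −log10 q of at least 10 it was 0.210 points. Peaks in both KO and neither WT library lay at 29 members (0.329%), against 1.26% of all sites. Peaks in both WT and neither KO lay at 4 (0.0454%), against 0.195% of all sites. At unmarked sites inside genes these shares were similarly low, 0.361% and 0.0120%.

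A PPARg peak was present in all 4 libraries at 17 members. The one with the highest CTCF rank lay 51.0 kb from Slc7a1, a transporter of basic amino acids, and 52.0 kb from Ubl3 (chr5:148450859-148452650). Its PPARg folds were 14.2 in WT 2, 10.0 in WT 4, 13.5 in KO 7 and 15.5 in KO 8, and its CTCF folds were 20.8 and 16.0 in WT against 14.0 and 14.4 in KO. No WT H3K27ac peak lay within 82.4 kb of it. The site 28.5 kb from Dhx40, an RNA helicase gene (chr11:86836333-86837164), had PPARg folds of 8.50, 8.24, 5.51 and 6.18 in the same order. The site between Mfge8 and Abhd2 (chr7:79228333-79229660) had 8.50, 7.65, 14.0 and 11.1. These sites did not move together, since both KO values were above both WT values at Abhd2 and below them at Dhx40.

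H3K27ac was absent from members in WT by the rule, and few had it in all KO libraries. Peaks overlapped 76 members in KO 2, 146 in KO 3 and 384 in KO 4, whose list covered 126 Mb against 79.5 and 91.2 Mb in KO 2 and KO 3. Of the 384, 267 had a peak in KO 4 alone. All 3 KO libraries had a peak at 27 members (0.306%, 0.211 to 0.445), against 0.251% of all 17130 unmarked sites. The count was 90 without KO 2, 54 without KO 3, 66 without WT 2, which removes fewer sites, and 80 when a site was removed only by H3K27ac of at least 2 WT libraries. It was 10 with lists of equal covered length and 14 when a WT mark within 1 kb removed a site. It was 16 with CTCF lists of 1 length and 14 with CTCF peaks of −log10 q of at least 10. Among the 27, 18 were called for CTCF in both KO libraries (66.7%, against 72.3% of all sites) and 6 were lost calls (22.2%, against 13.4%). Among the 119 members with H3K27ac in at least 2 KO libraries 10 were lost (8.40%), and among the 460 with it in at least 1 KO library 41 were (8.91%). Of the 27, 3 had PPARg peaks in both KO libraries.

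**Figure D5:**
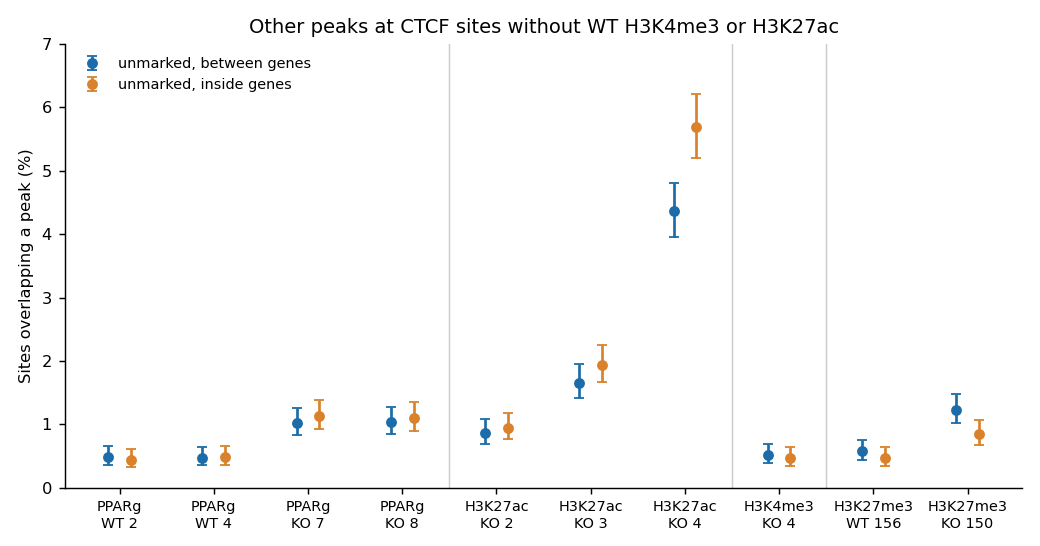
Percentage of unmarked CTCF sites that overlapped a peak of PPARg, H3K27ac, H3K4me3 or H3K27me3 in each library, between genes (blue, n = 8812) and inside genes (orange, n = 8318), with 95% Wilson intervals; WT H3K27ac and H3K4me3 are left out, since the rule sets them to 0. PPARg lies at 0.477% and 0.488% in WT and 1.02% and 1.04% in KO for sites between genes, and H3K27ac in KO 4 reaches 4.36%.

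The strongest member with H3K27ac in all 3 KO libraries lay 3.099 kb from Bcat2, an enzyme of branched-chain amino acid breakdown, and 19.8 kb from Fgf21, a fasting hormone gene of liver (chr7:45592810-45594105). Its H3K27ac folds were 3.39 in KO 2, 3.35 in KO 3 and 2.71 in KO 4, and a WT H3K27ac peak ended 0.674 kb away. The site between the acyl-CoA thioesterase genes Acot1 and Acot4 (chr12:84030837-84032346) had 3.82, 4.79 and 3.99, and PPARg peaks in 1 WT and both KO libraries. A WT H3K27ac peak lay 0.101 kb from it. At Epb41, a membrane skeleton gene, peaks of 7915 to 8467 bp with folds of 7.01, 6.30 and 6.77 reached the site, which lay 0.07 kb from a WT peak. Those of KO 2 and KO 3 ended just inside its edge, and that of KO 4 covered most of it. Such sites stood at the border of the rule. In all, 71 members lay within 100 bp of a WT H3K27ac peak, the nearest at 2 bp, and 67 of the 1341 excluded sites between genes with H3K27ac overlapped it by under 100 bp.

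H3K4me3 appeared in the KO library at 46 members (0.522%), against 0.496% of all unmarked sites. These 46 lay near genes, at a median of 1.61 kb, and 16 of them also had H3K27ac in a KO library. Those with the highest CTCF rank had narrow, low peaks. At the site 10.6 kb from Il20rb, a cytokine receptor gene (chr9:100445673-100447094), the H3K4me3 fold was 3.77 over 293 bp, and at the site touching Rtn4rl2, a receptor of axon growth inhibitors (chr2:84888504-84890846), it was 3.30 over 411 bp. At the site 6.51 kb from the nucleoside transporter gene Slc28a2 (chr2:122467667-122468939) it was 4.71 over 678 bp. With 1 library per genotype these peaks have no replicate check.

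H3K27me3, the mark of Polycomb repression, lay at 51 members in WT (0.579%, 0.440 to 0.760) and 108 in KO (1.23%, 1.02 to 1.48). The WT share was 0.426% and the KO share 0.862% over all sites. At unmarked sites inside genes they were 0.469% and 0.854%. The KO list was the longer one, with 9216 peaks over 6.25 Mb against 8131 over 4.01 Mb, and each genotype had 1 library, so no test was made. Peaks in KO alone lay at 82 members (0.931%), against 0.658% of all sites, and peaks in WT alone at 25 (0.284%), against 0.222%. All sites include those with WT H3K4me3 or H3K27ac, which the rule leaves out of the members. At unmarked sites inside genes the shares were 0.673% in KO alone and 0.289% in WT alone. With peaks of −log10 q of at least 2 the WT share was 0.102%, and with gene spans widened by 5 kb it was 0.290%. The 26 members with the mark in both genotypes were strong and near genes, with a median WT percentile of 69.1 and a median distance of 1.99 kb. Both KO libraries called 21 of them (80.8%, against 72.3% of all sites), and 2 were lost calls (7.69%, against 13.4%).

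The 6 of these 26 with the highest CTCF rank are described in turn. The site 0.225 kb from Asic1, an acid-sensing ion channel gene (chr15:99668620-99669971), had H3K27me3 folds of 3.90 in WT and 3.63 in KO, with CTCF folds of 22.6 and 22.2 in WT against 15.8 and 16.6 in KO. At Aanat, an enzyme of melatonin synthesis (chr11:116586390-116588361), the H3K27me3 folds were 3.18 and 3.60. The site touching Vgf, a neuropeptide precursor gene, had 3.24 and 3.96, the site touching Npm3 and 2.69 kb from the growth factor gene Fgf8 had 3.88 and 3.29, and the site 1.82 kb from Gdf6, a bone morphogenetic protein gene, had 3.34 and 3.90. The site between the signal gene Wnt1 and the dendrite protein gene Ddn had a WT peak of 3.71 and a KO peak of 3.58 at opposite ends, which do not overlap. WT was the higher at Asic1 and Npm3 and KO at Aanat, Vgf and Gdf6, and all folds lay near the lists' medians of 3.43 and 3.59.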

How the data were processed

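Chromatin immunoprecipitation sequencing of mouse liver was deposited as 1 peak list per library (18 lists). Per the submitters' processing notes the build was mm10, and the tools were MACS2 2.1.2, BWA 0.7.12, deepTools 3.1.3 and Picard 1.77. The control for peak calling and the treatment of reads with several matches are not given in the sources used here. For each peak the authors deposited a fold enrichment, which is a ratio over background, a −log10 p, a −log10 q, and a whole-number score that was not used. The lowest −log10 q was near 1 for H3K27ac and H3K27me3, 1.3 for H3K4me3 and PPARg WT 4, and 3 for the other lists. Peaks are called per library, and folds describe peaks within their own list.

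From these lists, regions were merged at 1 bp and overlaps of at least 1 bp counted (Python 3.11.15, pandas 2.3.3, numpy 2.4.6, scipy 1.17.1, matplotlib 3.10.9). Gene spans came from RefSeq (GRCm38.p6), of which mm10 is the same assembly. Shares carry 95% Wilson intervals that cover counting error only, since sites are not replicates. PPARg shares were compared by an exact permutation test over libraries. The merging and class counts were tested on simulated peaks. The members and gene lists were chosen with earlier results of these data known. Named sites are the 8 strongest by mean WT percentile, the 8 strongest lost calls, the 5 farthest from genes, up to 6 per other mark, the densest runs, and up to 4 per gene list or locus; those described are a part of these, and some are not reported here. The effect of other thresholds, overlaps, gene spans, list lengths and left-out libraries is given in the closing section. Of the promoter sequences, those on chromosome 18 were not printed.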

Additional observations from a re-analysis of the deposited data

How the results depend on the processing

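Values are given in the order of the alternatives. The number of members, 8812, was 5589 with CTCF peaks of −log10 q of at least 10, and 8838 to 10947 with 1 library left out. The share called in both KO libraries, 72.9%, was 64.7% with that threshold, 47.4% when peaks had to cover 50% of the region, 86.7% with CTCF lists of 1 length, and 59.6% to 82.6% with 1 library left out. The lost share, 13.4%, was 16.5%, 23.7% and 4.28% under the same settings and 13.3% to 26.6% with 1 library left out. The difference from sites inside genes, 3.94 points, was 1.09 points with CTCF lists of 1 length, 1.49 points with spans widened by 5 kb, and 1.96 to 4.18 points with 1 library left out, and it kept its sign in all 15 alternatives. The count of members with H3K27ac in all 3 KO libraries, 27, was 14 with the stricter CTCF threshold, 16 with CTCF lists of 1 length, 14 when a mark within 1 kb removed a site, 80 when 2 of 3 WT libraries had to have H3K27ac, 10 with H3K27ac lists of equal covered length, and 26 to 90 with 1 library left out. The WT H3K27me3 share, 0.579%, was 0.290% with widened spans, 0.102% with H3K27me3 peaks of −log10 q of at least 2, and 0.438% with regions merged from the WT CTCF lists alone, a setting chosen after seeing the data; it was 0.474% to 0.576% with 1 library left out. The median distance to a gene, 14.1 kb, was 12.4 kb with the stricter CTCF threshold, 12.998 kb with CTCF lists of 1 length, 14.9 kb when a mark within 1 kb removed a site, 23.7 kb with widened spans and 6.53 kb with all RefSeq genes. The excess of PPARg in KO kept its sign in all 21 alternatives, from 0.0567 to 0.689 points. Leaving out a CTCF library changes the rule itself, since calls are then asked of fewer lists, and shortening lists removes weak peaks. The causes of the other shifts were not tested. No paired analysis was possible because the numbers shared by the H3K27ac libraries enter no comparison of genotypes by a test, and the other groups share fewer than 2 numbers. Read depth is unknown from peak lists, so an uncalled site may hold signal below the threshold.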

Other observations

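The 3 other densest stretches of up to 200 kb held 8 or 9 members each. On chromosome 4 (150072874 to 150265396), 9 members lay among the sugar transporter genes Slc2a5 and Slc2a7, the carbonic anhydrase gene Car6 and the glycolytic enzyme gene Eno1. KO163 called 7 of them and KO160 called 4. The strongest, between Gpr157 and Slc2a5, had CTCF fold enrichments of 19.6 and 15.8 in WT against 9.67 and 14.9 in KO. On chromosome 17 (35577537 to 35740794), 9 members lay on either side of Ddr1, a collagen receptor gene, from near 2300002M23Rik to its Ier3 side, and 6 were called in both KO libraries. They included the member with the highest fold in any WT library, 8.59 kb from 2300002M23Rik, with 49.2 and 30.2 in WT against 31.6 and 28.3 in KO. On chromosome 2 (180744542 to 180925901), 8 members lay between Slc17a9 and Birc7, on either side of Bhlhe23 and Ythdf1, a reader of methylated RNA. Both KO libraries called 6, KO163 alone called the other 2, and none was lost.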
